A study of Mus musculus with 2 samples.

Results

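The miR-30 and miR-26 families were examined in the exosomes of mouse BMSCs, the bone marrow-derived mesenchymal stem cells that can give rise to bone, cartilage and fat. Exosomes are small membrane vesicles that cells release and that carry RNA. The members are 9 of the 1881 mouse miRNAs on the array, listed by name: mmu-miR-30a-5p, mmu-miR-30a-3p, mmu-miR-30b-5p, mmu-miR-30c-5p, mmu-miR-30d-5p, mmu-miR-30e-5p, mmu-miR-30e-3p, mmu-miR-26a-5p and mmu-miR-26b-5p. The list was set with earlier results of these data known, and it leaves out other products of the same precursors. Every spot that carried one of these names on both arrays was taken. The prefix mmu, for mouse, is left out below.

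The cells were purchased mBMSCs of C57BL/6 mice, grown with serum depleted of exosomes. They were kept for 72 h in normoxia or at 0.2% oxygen (hypoxia), and the exosomes were precipitated from the medium with a reagent. Each condition was 1 array with 1 colour, so no biological replicate exists and no test was run. The SD and the standard error (SE) given below are over the replicate spots of a probe inside an array, and they say nothing of the spread between cultures or between exosome preparations. Both arrays lay on the same slide, so the position on the slide and the oxygen condition cannot be told apart.

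A miRNA is a short RNA that guides repression of messenger RNAs, mainly by pairing of its seed, the bases 2 to 8 from the 5′ end, with sites in the target. The precursor hairpin can give a mature product from either arm, named 5p and 3p, and usually 1 arm predominates. The miR-30 family is abundant in many differentiated tissues and is known for restraining epithelial-mesenchymal transition through targets such as Snai1, and for regulating autophagy through Becn1. The miR-26 family is widely expressed, is known for targeting the histone methyltransferase Ezh2, and lies within the genes of the CTD small phosphatases.

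Mature sequences were available in the RefSeq table (GRCm38.p6) for 7 of the 9 members, all but miR-30b-5p and miR-30d-5p. They are shown because they decide which members share a seed and how well a hybridisation probe can separate them. Capitals mark the seed. The miR-30 5p arms shared the seed GUAAACA:
miR-30a-5p: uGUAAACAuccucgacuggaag
miR-30e-5p: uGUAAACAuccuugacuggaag
miR-30c-5p: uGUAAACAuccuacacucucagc

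The 3p arms of miR-30a and miR-30e shared another seed, UUUCAGU:
miR-30a-3p: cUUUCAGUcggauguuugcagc
miR-30e-3p: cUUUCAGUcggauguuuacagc

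Both miR-26 members shared the seed UCAAGUA:
miR-26a-5p: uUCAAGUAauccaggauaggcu
miR-26b-5p: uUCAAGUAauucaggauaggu

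With positions counted from 1 at the 5′ end, miR-30e-5p differed from miR-30a-5p by C13U alone, and miR-30e-3p differed from miR-30a-3p by G18A alone. Against miR-30a-5p, miR-30c-5p carried C13A, G14C, G18C, G19U and A20C and was 1 base longer. Between miR-26a-5p and miR-26b-5p the substitutions were C11U and C21U, and miR-26b-5p was 1 base shorter. None of these differences lay in the seed. Members this close can hybridise to one another's probes, so the values of miR-30a-5p and miR-30e-5p, of their 3p arms, and of miR-26a-5p and miR-26b-5p are uncertain as separate measurements. Without their sequences, the closeness of miR-30b-5p and miR-30d-5p to the other members could not be judged, so their values may be no more separate.

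The members come from several loci. On GRCm38.p6, miR-30a-5p lies at chr1:23272274-23272295 on the plus strand, and miR-30a-3p, from the other arm of the same hairpin, lies at chr1:23272315-23272336. The nearest miRNA gene to Mir30a in the RefSeq table was Mir30c-2, where the copy of miR-30c-5p is at chr1:23291714-23291736. The second copy of miR-30c-5p, from Mir30c-1, is at chr4:120769584-120769606 on the minus strand, within Nfyc, a gene of the nuclear factor Y complex. MiR-30e-5p is at chr4:120772660-120772681, also on the minus strand and within Nfyc, with miR-30e-3p at chr4:120772618-120772639. Mir30b and Mir30d were each other's nearest miRNA genes, on chromosome 15. The copies of miR-26a-5p lie at chr9:119031811-119031832 within Ctdspl and at chr10:126995543-126995564 within Ctdsp2, and miR-26b-5p lies at chr1:74394324-74394344 within Ctdsp1, all on the plus strand. Mature copies of equal sequence cannot be told apart on an array.

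The hypoxia array was the less precise. By the software's count, the coefficient of variation among replicate spots had a median of 9.68% in normoxia and 15.8% in hypoxia, and on the hypoxia array that value and the labelling spike-in signal were outside the software's quality range. Without normalization, the labelling spike-ins, control RNAs added before labelling, were lower in hypoxia, with log2 differences of −0.44 and −0.51, and those of the hybridization spike-ins, added later, were −0.09 and −0.16. Detection of a miRNA required a probe with over 50% of its spots well above background. In all, 225 miRNAs were detected in normoxia and 199 in hypoxia, with 180 on both. The processed signal given below is a linear intensity with the background subtracted and no scaling between arrays. Log2 differences are hypoxia minus normoxia after quantile normalization, which gives both arrays the same distribution of probe signals, and are means over the probes detected on both arrays.

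To see which members were present in the exosomes, the calls were counted first. MiR-30a-5p, miR-30d-5p, miR-30e-5p and miR-26a-5p were detected on both arrays. MiR-26b-5p was detected in normoxia and not in hypoxia. MiR-30a-3p, miR-30b-5p, miR-30c-5p and miR-30e-3p were detected on neither array. Normoxic exosomes thus had 5 of the 9 members above background and hypoxic exosomes had 4 of 9, while of all 1881 miRNAs 12.0% were detected in normoxia and 10.6% in hypoxia. The other arms of these precursors, with miR-30f and the seed-mate miR-384-5p, make 9 further miRNAs on the array, and 0 of those 9 were detected in either condition. None of the 7 members with a sequence held the letters GGAG, a motif described for the sorting of miRNAs into exosomes, while 238 of the 1679 mature miRNAs of the RefSeq table (14.2%) held it. With 7 members, a count of 0 is near what that share gives. Among the further products, miR-30c-1-3p and miR-30c-2-3p held the motif. The search read the mature strand alone, and nothing about the sorting factor follows from it.

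The 3 detected 5p arms of the miR-30 family were lower in hypoxic exosomes by like amounts. MiR-30a-5p was 1.78-fold lower (log2 difference −0.83, SE 0.04 over spots), miR-30d-5p was 1.90-fold lower (−0.93, SE 0.045) and miR-30e-5p was 1.74-fold lower (−0.80, SE 0.085). None reached a 2-fold difference, the size used here because the study's text describes changes of more than that fold. On each of the 7 probes of these members, every hypoxia spot without an outlier flag lay below every such normoxia spot in processed signal. That signal has no scaling between arrays, and spots were not compared after normalization. Without normalization, the median log2 difference of the 180 miRNAs detected on both arrays was −0.27. All the unflagged spots of a miRNA were lower on the hypoxia array for 3 of the 4 members detected on both, and for 58 of all 180 miRNAs (32.2%).

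**Figure D1:**
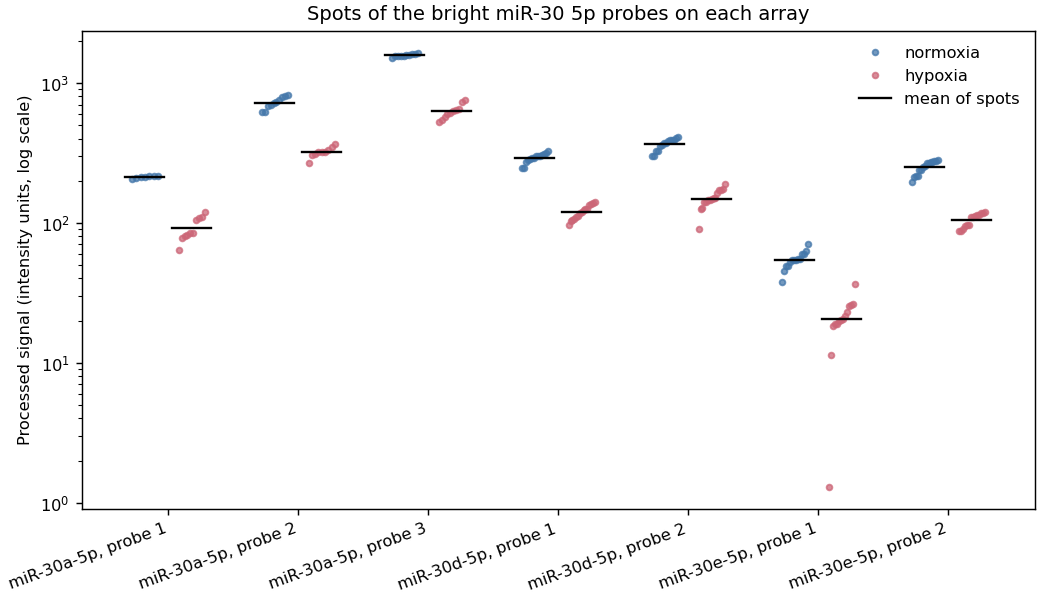
Processed signal (intensity units, log scale) of every spot without an outlier flag, for the 7 probes of miR-30a-5p, miR-30d-5p and miR-30e-5p on the normoxia array (blue) and the hypoxia array (red), with spots sorted by value and a black bar at their mean. On each probe the hypoxia spots sit below all normoxia spots, and the hypoxia mean is between 37.9% and 44.5% of the normoxia mean.

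MiR-30a-5p, the 5p product of Mir30a, had 3 probes. In normoxia the first had a mean processed signal of 213 ± 3.80 (SD, n = 7 spots), with a lowest, median and highest spot of 206, 213 and 217, and in hypoxia it had 91.7 ± 17.7 (n = 10 spots), with 64.1, 84.7 and 119. The second gave 723 ± 71.8 (n = 10 spots; 621, 719.9 and 825) in normoxia and 322 ± 27.2 (n = 9 spots; 269, 320.4 and 366) in hypoxia. The third gave 1573 ± 33.8 (n = 10 spots; 1517, 1567 and 1636.5) against 626 ± 74.6 (n = 10 spots; 528, 618 and 755). The hypoxia spots were the low ones on all 3 probes, with no overlap. The log2 differences of the 3 probes were −0.75, −0.88 and −0.86. The first probe lost 3 normoxia spots to outlier flags, which had signals of 180 to 226, also above all hypoxia spots of that probe.

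MiR-30d-5p, whose gene neighbours Mir30b, had 2 probes. One measured 290.03 ± 23.8 (n = 14 spots; 245, 295 and 327) in normoxia and 119.75 ± 14.002 (n = 15 spots; 96.5, 120.1 and 141) in hypoxia. The other measured 363 ± 36.9 (n = 14 spots; 299.6, 373 and 411) in normoxia and 149 ± 23.8 (n = 15 spots; 90.9, 148 and 188) in hypoxia. Hypoxia was low on both probes with no overlap, and the log2 differences were −0.91 and −0.94. Among the 180 miRNAs detected on both arrays, 19 had a lower difference than miR-30d-5p.

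MiR-30e-5p, which comes from within Nfyc, had 2 probes. On the first, normoxia gave 54.2 ± 7.85 (n = 14 spots; 38.0, 54.2 and 70.2) and hypoxia gave 20.6 ± 7.87 (n = 14 spots, 12 of them well above background; 1.29, 20.3 and 36.3). On the second, normoxia gave 249.6 ± 28.5 (n = 15 spots; 196, 256 and 281) and hypoxia gave 105 ± 12.0 (n = 14 spots; 86.8, 110.1 and 119.6). The unflagged spots did not overlap on either probe, and the log2 differences were −0.76 and −0.84. A hypoxia spot of the first probe had a signal of 1055 and carried an outlier flag, so it was left out. A flagged normoxia spot of that probe, at 31.2, lay below its highest unflagged hypoxia spot. The separation thus holds for unflagged spots alone, in processed signal. With all flagged spots kept in the mean, the hypoxia mean of that probe was 89.5 and the log2 difference of miR-30e-5p turned to 0.39, while with the median of all spots it was −0.80.

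The differences of these 3 members lay close together. MiR-30a-5p minus miR-30d-5p was 0.10 (SE 0.06) on the log2 scale, miR-30a-5p minus miR-30e-5p was −0.03 (SE 0.094) and miR-30d-5p minus miR-30e-5p was −0.13 (SE 0.096), each within 2 SE over spots. Cross-hybridisation between them was not tested.

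How far they fell depended on how the arrays were scaled. Without normalization, miR-30a-5p, miR-30d-5p and miR-30e-5p had log2 differences of −1.24, −1.28 and −1.33, so that all 3 passed 2-fold. In that setting 36 of the 180 miRNAs were at least 2-fold lower (20%). With the 75th percentile over all probes as the scale, they were −0.31, −0.35 and −0.40. Over the 6 scalings compared, each of the 3 was below 0 in 6 of 6, and they were at least 2-fold lower in 2, 2 and 3 scalings. Relative to the median of all 180 miRNAs, the values were −0.998, −1.09 and −0.97 with quantile normalization, and −0.97, −1.01 and −1.06 with any single factor per array.

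**Figure D2:**
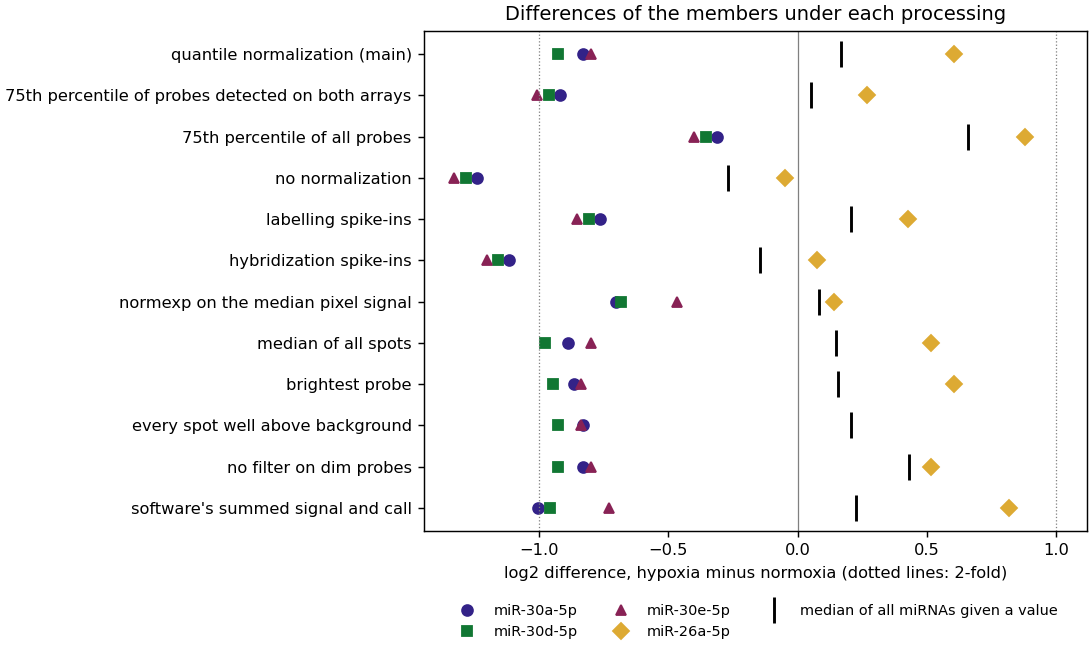
Log2 difference (hypoxia minus normoxia, horizontal axis) of miR-30a-5p, miR-30d-5p, miR-30e-5p and miR-26a-5p under quantile normalization and 11 alternatives (vertical axis), with a black tick at the median of all miRNAs given a value and dotted lines at 2-fold. The miR-30 arms stay left of 0 and left of the tick in each setting drawn, while miR-26a-5p moves between −0.05 and 0.88. The setting that keeps outlier spots in the mean is not drawn.

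The remaining miR-30 members were at or near background. MiR-30c-5p carries the same seed as miR-30a-5p. Its brighter probe measured 16.8 ± 4.78 in normoxia (n = 15 spots, 7 well above background; 8.46, 14.8 and 25.9) and 8.23 ± 5.55 in hypoxia (n = 15 spots, 2 well above background; −0.71, 8.12 and 18.0). The spots of the arrays overlapped, and neither array reached the share needed for detection, so no fold is given. The scanner software's own call, which sums the probes of a miRNA, did count miR-30c-5p and miR-30a-3p as detected in normoxia, and in hypoxia it counted neither.

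MiR-30a-3p, the other arm of the miR-30a hairpin, measured 14.2 ± 2.86 in normoxia (n = 15 spots, 6 well above background; 9.84, 14.5 and 17.9) and 8.38 ± 3.72 in hypoxia (n = 14 spots, 1 well above background; 2.80, 8.84 and 16.3) on its brighter probe. Its spots overlapped too. MiR-30b-5p, whose gene neighbours Mir30d, had 0 of its spots well above background on either array, with 8.58 ± 3.18 (n = 15 spots) in normoxia and 6.28 ± 4.72 (n = 14 spots) in hypoxia on the brighter probe. MiR-30e-3p likewise had 0 such spots, with 2.50 ± 2.08 (n = 14 spots) and 1.62 ± 3.44 (n = 15 spots). By the detection rule used here, the Mir30a and Mir30e hairpins, which have both arms among the members, each had the 5p arm detected and the 3p arm not. The software's call differed for miR-30a-3p in normoxia.

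**Figure D3:**
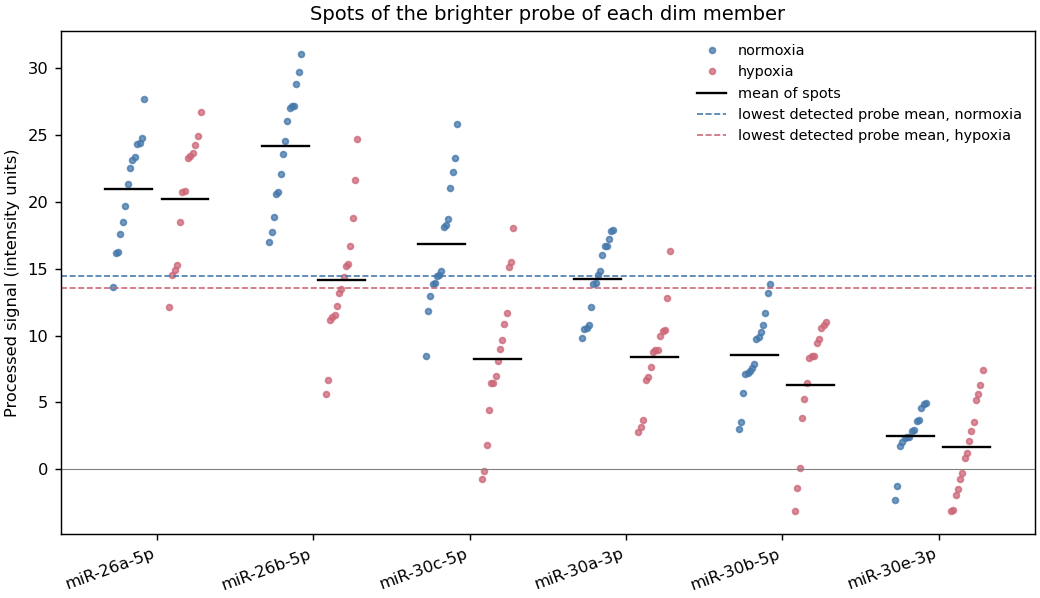
Processed signal (intensity units, linear axis) of every spot without an outlier flag, for the brighter probe of each member that is dim or not detected, on the normoxia array (blue) and the hypoxia array (red), with a black bar at the mean and dashed lines at the lowest mean of a detected probe (14.5 in normoxia, 13.5 in hypoxia). The miR-26a-5p spots of both arrays cover nearly the same range, the miR-26b-5p mean drops from 24.2 to 14.1, and the miR-30b-5p and miR-30e-3p means lie below the lines.

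The miR-26 members had dim signals, near equal on both arrays for miR-26a-5p and lower on the hypoxia array for miR-26b-5p. MiR-26a-5p was detected by 1 of its 2 probes. That probe measured 21.0 ± 4.06 in normoxia (n = 14 spots, 13 well above background; 13.6, 22.0 and 27.7) and 20.3 ± 4.71 in hypoxia (n = 13 spots, 9 well above background; 12.2, 20.9 and 26.8). The spots overlapped over nearly their whole range, and the processed signal in hypoxia was 96.6% of that in normoxia. After quantile normalization its log2 difference was 0.61 (SE 0.12), 1.52-fold higher in hypoxia, and without normalization it was −0.05, so the sign depended on the scaling. Its second probe, at 8.42 in normoxia and 7.24 in hypoxia, had 0 spots well above background.

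A normoxia spot of the detected miR-26a-5p probe had a signal of 23992 and carried an outlier flag. It was left out, since the other 14 spots lay between 13.6 and 27.7. Kept in the mean, it alone raised the normoxia value of that probe to 1619 and turned the log2 difference of miR-26a-5p to −5.54, while with the median of all spots the difference was 0.51.

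MiR-26b-5p had its brighter probe at 24.2 ± 4.47 in normoxia (n = 15 spots, all 15 well above background; 17.0, 24.5 and 31.1) and at 14.1 ± 5.04 in hypoxia (n = 15 spots, 4 well above background; 5.61, 13.5 and 24.7). The hypoxia spots were lower on average and overlapped those of normoxia. As it was not detected in hypoxia, no fold between detected signals can be given. Its normalized signal was 1.21-fold lower there, counted against its own undetected hypoxia signal. That signal lay above the dimmest detected one of that array, so the 1.21-fold compares the probe's own signals and is not a lower limit. Even its direction depended on the scaling. With the 75th percentile over all probes it fell under 1-fold and none is given. With no filter on dim probes the log2 difference was 0.07. The software's call counted miR-26b-5p as detected on both arrays, with a log2 difference of −0.63.

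Set among all miRNAs, the 4 members detected on both arrays had a median log2 difference of −0.81, against 0.17 over the 180. The range over the 180 was −3.90 to 5.30. Of the 4 members, 3 were below 0, against 77 of 180 (42.8%). Without normalization, 4 of 4 members and 117 of the 180 miRNAs were below 0. At the 2-fold threshold after quantile normalization, 0 of 4 members were higher and 0 of 4 were lower. Of the 180 miRNAs, 33 (18.3%) passed it upwards and 18 (10%) downwards. With 4 members, a count of 0 is near what those shares give, and the direction rests on 3 members of the miR-30 family.

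A pair of other widely expressed families, chosen with earlier results of these data known, gave smaller differences. Of let-7, a family known for promoting differentiation, and its seed-mate miR-98-5p, 8 of 9 were detected on both arrays, with a median of −0.33 and a range of −0.65 to 0.38. All 3 members of miR-29, known for targeting collagens, were detected on both, with a median of −0.04 and a range of −0.57 to 0.08. None of these 11 reached 2-fold after quantile normalization, and the difference between families was not tested. Without normalization, let-7 had a median of −0.65 and a lowest value of −1.11, past 2-fold, and miR-29 had a median of −0.60. In that setting the 3 miR-30 5p arms had a median of −1.28, and the 180 miRNAs had −0.27. Lower values were not limited to the miR-30 family. After quantile normalization, miR-18a-5p (−1.23), miR-19b-3p (−0.77) and miR-20b-5p (−0.72) were among the 77 of all 180 miRNAs below 0, while 102 were above 0.

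**Figure D4:**
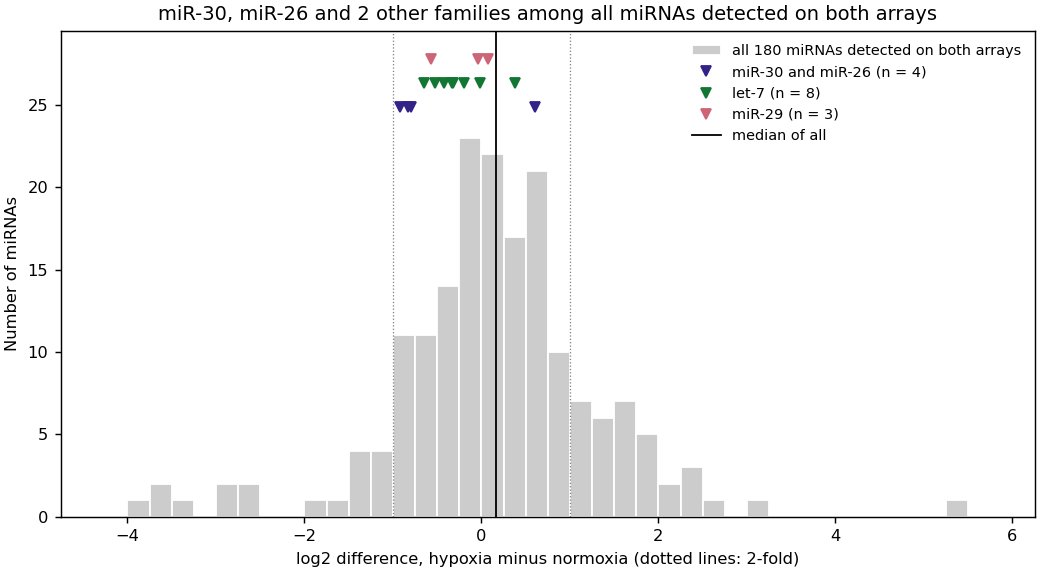
Histogram of the log2 differences (hypoxia minus normoxia, horizontal axis) of the 180 miRNAs detected on both arrays (number per bin, vertical axis), with triangles at the values of miR-30 and miR-26 members, let-7 and miR-29, a line at the median of 0.17 and dotted lines at 2-fold. The 3 miR-30 arms lie together between −0.93 and −0.80, miR-26a-5p lies at 0.61, and the let-7 and miR-29 values lie between −0.65 and 0.38.

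Markers of the cells that the medium could carry RNA from were read beside these values. Of 5 miRNAs typical of mesenchymal stromal cells, 4 were detected on both arrays (miR-199a-3p, miR-199a-5p, miR-214-3p and miR-143-3p) with a median log2 difference of 0.38 and a range of 0.03 to 1.20, and miR-145a-5p was detected on neither. Their summed processed signal, taken as the mean over the probes of each miRNA, was 474 in normoxia and 465 in hypoxia. The 3 red cell miRNAs summed to 354 in normoxia and 21.4 in hypoxia. Among them miR-451a had a log2 difference of −3.66, miR-144-3p was detected in normoxia alone, and miR-486a-5p was detected on neither array. The 4 leukocyte miRNAs summed to 21.3 and 1.19, with miR-223-3p detected in normoxia alone and miR-142a-3p, miR-142a-5p and miR-150-5p on neither array. The 9 members summed to 1375 and 582. The summed red cell and leukocyte signals were thus lower on the hypoxia array, as were the miR-30 5p arms. Only miR-451a of the red cell and leukocyte miRNAs was detected on both arrays. Against the higher of its own hypoxia signal and the lowest detected one, miR-144-3p was 1.16-fold lower and miR-223-3p 1.25-fold lower. With 1 array per condition no likeness between miRNAs was computed. The part of these signals in the miR-30 result was not tested.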

How the data were processed

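Cy3-labelled RNA of BMSC exosomes was hybridised, 1 array per condition, to Agilent mouse miRNA arrays. Per the file headers, Feature Extraction 11.5.1.1 read the images for the authors. The deposited intensity values are its processed signals, with the background and a spatial trend subtracted and no normalization between arrays. The other deposited columns used were flags of 0 or 1 per spot and the software's summed intensity. The deposited value table equalled the processed signals (largest difference 0). The labels describe a reverse transcription, whereas the study's methods name a miRNA labelling kit. The array design names mm9. Positions and sequences are from RefSeq tables of GRCm38.p6.

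Each array held 56430 spots of 4415 miRNA probes. Spots with any of 4 outlier flags (2.96% in normoxia, 3.45% in hypoxia) were left out, and the rest were averaged per probe. Probes were quantile-normalized, because the study names that method, in Python 3.11.15 (pandas 2.3.3). No spot was saturated. The number of arrays limits the precision.

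The members and lists were chosen with earlier results of these data known. All 9 members are named. MiR-486-5p and the miR-142 products of the marker lists stand on the array as miR-486a-5p, miR-142a-3p and miR-142a-5p. The 12 alternatives changed the scaling, background correction (normexp with an offset of 50, limma 3.58.1 in R 4.3.3), spot summary, probe choice, filter and source of the values. Keeping outlier spots in the mean was added after seeing the data.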

Additional observations from a re-analysis of the deposited data

How the results depend on the processing

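No paired analysis was possible because there was a single array for normoxia and a single array for hypoxia. The 0 members at least 2-fold lower became 1 with 75th percentile scaling over jointly detected probes (miR-30e-5p, −1.01), 3 without normalization, 3 with the hybridization spike-ins, 1 with the software's summed signal (miR-30a-5p, −1.003) and 1 with outlier spots kept in the mean (miR-26a-5p). The median of the members was −0.33 when scaled to the 75th percentile of all probes and −1.26 without normalization. It was 0.31 with no filter, where all 9 members enter and dimmer probe signals are raised to the lowest detected one of each array. A probe below both of those signals then takes a fixed difference of 0.43, as miR-30a-3p, miR-30b-5p and miR-30e-3p did. The median of 0.31 is therefore not a measured difference. The difference of miR-26a-5p turned to −0.050 without normalization and to −5.54 with outlier spots kept, which also turned miR-30e-5p to 0.39. The signal of miR-26b-5p was no longer lower in hypoxia with 75th percentile scaling over all probes. With no filter its difference was 0.07, set in part by the fixed value of its dimmer probe. Over all alternatives, 44 of 60 values of single members stayed within 1 SD over spots of the main value, 13 moved by more than that with the same sign, and 3 changed sign. The 44 include the values from the deposited value table, which equalled the processed signals and so could not differ. The 60 leave out miR-26b-5p with 75th percentile scaling over all probes and with no filter, where it was no longer lower. They also leave it out with the software's summed signal, where it had a difference between detected signals of −0.63. With a probe counted only where all its spots were well above background, 3 members were detected on both arrays. The 60 hold no value of either miR-26 member under that filter.

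Over all miRNAs, the counts higher and lower by at least 2-fold were 29 and 25 with 75th percentile scaling over jointly detected probes, 58 and 10 with that over all probes, 20 and 36 without normalization, 25 and 30 with the hybridization spike-ins, 11 and 11 with normexp, 29 and 9 of 144 with that stricter filter, and 48 and 26 of 212 with the software's signal. Signal over background limits miR-26a-5p and miR-26b-5p, which lie near the lowest detected probe, and the members not detected.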
